A study of Mus musculus with 7 samples.

Results

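Integrin and cadherin genes encode the receptors that hold a cell to the matrix around it and to its neighbours. They were followed in mouse neural stem cells of 3 genotypes by RNA sequencing. The members are the genes whose symbol is that of an integrin alpha or beta subunit or of a numbered cadherin. The table of 18145 genes held 41 of them, and all 41 were among the 18134 genes tested. They comprise 15 alpha and 6 beta integrin genes and 20 cadherin genes. Of the cadherin genes, 16 encode classical cadherins (5 of type I and 11 of type II), and the symbols also take in 4 that are not classical, Cdh13, Cdh17, Cdh23 and Cdh26. Itgam, Itgax, Itgad, Itgb2, Itgb6, Cdh12, Cdh16 and Cdh19 had no row under these symbols and so were not analysed here. The mutant lines were 2 labelled Tet-TFoCa (TFoCa) and 2 labelled Tet-TMut (TMut), and the control lines were 3 labelled WT. All were neural stem cells at passage 1 with no treatment stated, and each library came from a line of its own. The design text spells the first genotype Tet-FoCa. TET enzymes oxidise 5-methylcytosine in DNA to hydroxymethyl-, formyl- and carboxylcytosine, and the series title sets the first product against the others. The labels do not say which alleles each mutant line carries, how the lines were derived or whether any of them share a source embryo. Each library held between 33340167 and 62545457 reads assigned to genes. The labelled cell type was checked with 11 neural stem cell markers, all of them measured. Their summed normalized count was 74825 to 80695 in TFoCa, 31328 to 43757 in TMut and 121827 to 124786 in WT. Against WT, 0 rose and 2 fell in TFoCa and 0 rose and 10 fell in TMut, and none was at 0 in any library. Of all genes, 8.77% were called in TFoCa versus WT and 38.8% in TMut versus WT. Sox1, an early neural transcription factor, had 4054 and 7669 in TFoCa, 2981 and 1652 in TMut, and 15231, 14481 and 13933 in WT. The markers did not share 1 order in TFoCa, where Prom1 and Notch1 lay above every WT library without a call. Prom1 had 4947 and 3925 in TFoCa, and 2958, 3082 and 3770 in WT. Notch1 had 6416 and 6824 in TFoCa, and 6058, 5656 and 6326 in WT. WT libraries also held transcripts of pluripotency genes, of which Pou5f1 had 166 and 166 in TFoCa, 3242 and 15569 in TMut, and 2613, 5487 and 3351 in WT. In a culture measured in bulk, fewer cells of a type and less RNA per cell cannot be told apart.

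Integrins are dimers of 1 alpha and 1 beta subunit, and the pairing sets the ligand. Most alpha subunits of solid tissues pair with beta1, the alphav subunit also pairs with several other beta subunits, and a leukocyte set pairs with beta2 or beta7. The cytoplasmic tails bind talin and kindlin, which couple the receptor to actin. Classical cadherins bind the same or a related cadherin on the next cell and are tied to actin through beta-, alpha- and p120-catenin. Neuroepithelial cells are known for N-cadherin at their apical junctions, laminin-binding alpha6 beta1 integrin at the basal end and type II cadherins that differ between brain regions.

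More integrin genes rose than fell in both mutant genotypes relative to WT, and more cadherin genes fell than rose in TMut. Of 21 integrin genes, 9 rose and 1 fell in TFoCa (median log2 fold change 0.73), and 11 rose and 2 fell in TMut (median 0.90). Of 20 cadherin genes, 2 rose and 0 fell in TFoCa (median 0.07), and 2 rose and 8 fell in TMut (median -1.06). Over all genes tested, 8.77% were called in TFoCa versus WT (5.25% rose and 3.52% fell) and 38.8% in TMut versus WT (18.4% rose and 20.4% fell), and the median was -0.02 and 0.00. The 2 comparisons share the WT libraries. Calls are Benjamini-Hochberg adjusted p values under 0.05 from limma, fitted to log2(normalized count + 1) over all 7 libraries (n = 2 TFoCa, 2 TMut and 3 WT). This scale understates changes of low genes. Where settings that ended or gave a call are listed gene by gene below, the replicate block is left out and given at the end. At an unadjusted p under 0.05, 5 cadherin genes fell in TFoCa, and edgeR called 0 and DESeq2 2 of them.

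Tested directly between the mutants, 9 integrin genes rose and 5 fell in TMut relative to TFoCa, and 2 cadherin genes rose and 11 fell (medians 0.51 and -1.70, against 0.00 over all genes, of which 35.8% were called, 17.3% up and 18.5% down). In all, 32 of 41 members were called in at least 1 comparison, 18 of them integrin and 14 cadherin genes, where 49.8% of all genes were. The members' libraries did not overlap between genotypes for 22 of 41 in TFoCa versus WT, 31 in TMut versus WT and 35 in TMut versus TFoCa, where the shares over all genes were 45.2%, 67.1% and 67.5%. Calls of at least 1 log2 unit covered 6 integrin and 2 cadherin genes in TFoCa versus WT (4.47% of all genes), 10 and 9 in TMut versus WT (19.7%) and 8 and 12 in TMut versus TFoCa (17.9%). Integrin calls in TFoCa versus WT numbered 5 without WT replicate 2 and 6 without WT replicate 3, and those in TMut versus TFoCa numbered 7 without TMut replicate 2. Cadherin calls in TFoCa versus WT came to 5 without TMut replicate 1 or TMut replicate 2. Of all genes, 734, 495 and 638 were called in TFoCa versus WT without WT replicate 1, 2 and 3, against 1590 with all libraries, and without TMut replicate 2 the calls numbered 4329 in TMut versus WT and 3164 in TMut versus TFoCa, against 7043 and 6491.

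**Figure D1:**
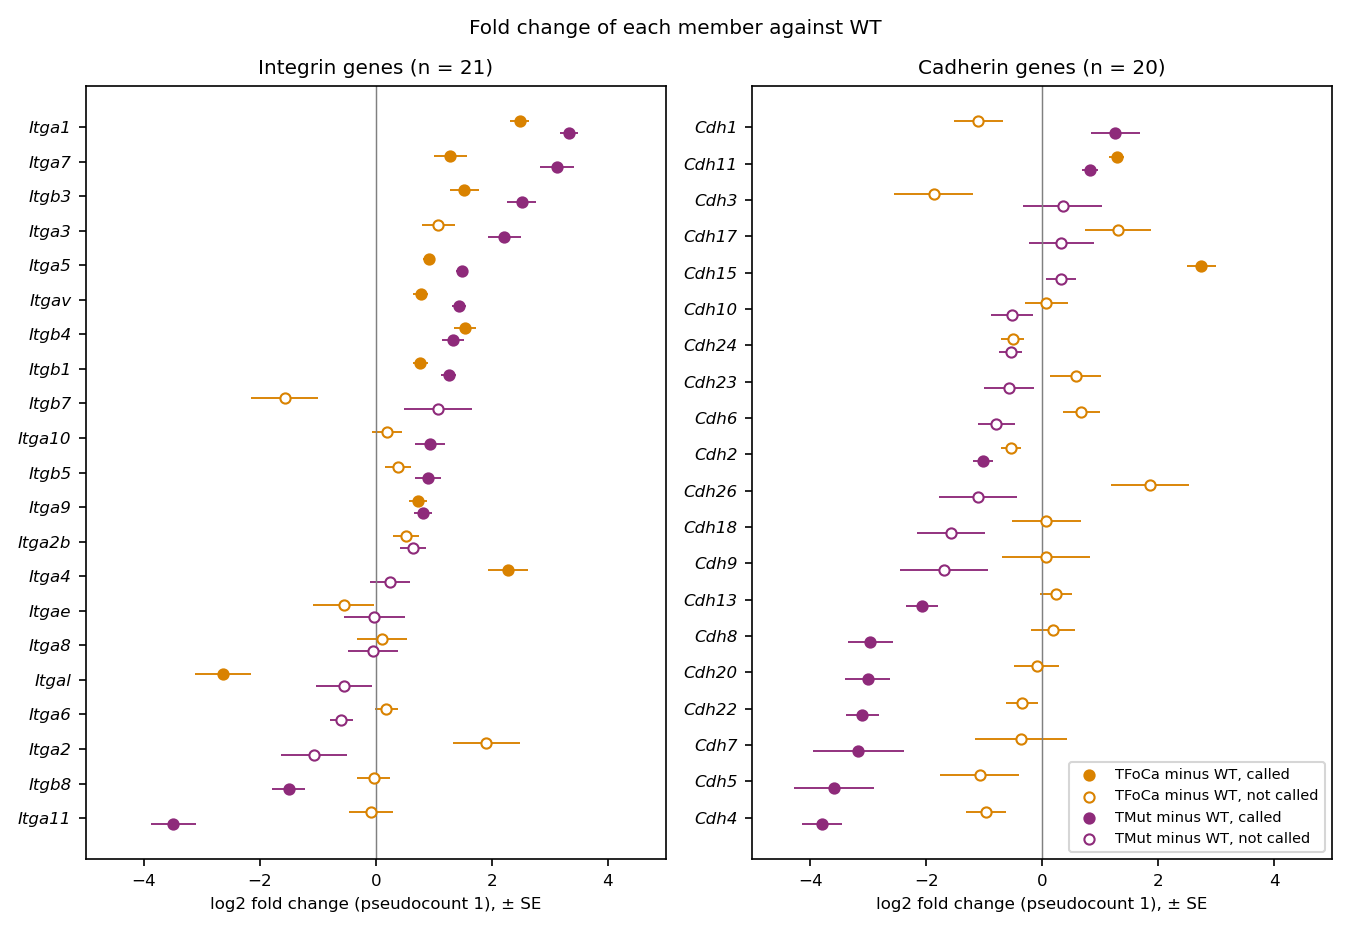
Log2 fold change (± SE from limma) of the 21 integrin genes and the 20 cadherin genes in TFoCa minus WT and TMut minus WT, in the order of the TMut change, with filled points for called genes. Itga1 lies at 2.48 in TFoCa and 3.33 in TMut, and 8 cadherin genes down to Cdh4 at -3.80 have filled points left of 0 in TMut.

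The 5-methylcytosine that TET enzymes oxidise lies mostly at CpG sites. Promoter windows from 250 bases before to 50 after a gene's start (RefSeq, GRCm38.p6, which is not the build of the counts) were at hand for 27 of the 41 members, in 30 windows. The member windows held 2 to 38 CpG sites (median 12.5), against a median of 7 over all 32851 windows. Those windows were not limited to genes measured here, so the 2 medians are of unlike sets. Members that rose in TMut versus WT had 6 to 27 sites (8 genes with a window, median 16.5), those that fell had 13 to 38 (6 genes, median 18.5) and those not called had 2 to 30 (13 genes, median 8), where the window with the most sites stands for a gene with several. The letters CACCTG, which Snail and ZEB repressors of E-cadherin recognise, were in 26.7% of member windows on either strand and in 20.2% of all windows. The 8 member windows with them belong to Cdh7, in each of its several windows, and to Itga3, Itga9, Itga11, Itgb5 and Itgb8. Cdh1, Cdh2, Cdh3 and Cdh4 were among the members without a window, so the promoter of E-cadherin (Cdh1) was not scanned. The letters TGANTCA, an AP-1 motif, were in 6.67% and 7.81%, and GGGCGG, an Sp1 motif, in 43.3% and 35.7%. No methylation was measured in these files, and these counts are descriptions. The windows printed here, 5′ to 3′ along the gene with each CG in capitals, belong to Itga1 and Itga5, which rose in both mutants, Cdh15, which rose in TFoCa, and Itga11 and Cdh22, which fell in TMut. Each is a single window, with 12, 13, 7, 16 and 38 CpG sites in that order.
Itga1, chr13:115101915-115102214, strand -: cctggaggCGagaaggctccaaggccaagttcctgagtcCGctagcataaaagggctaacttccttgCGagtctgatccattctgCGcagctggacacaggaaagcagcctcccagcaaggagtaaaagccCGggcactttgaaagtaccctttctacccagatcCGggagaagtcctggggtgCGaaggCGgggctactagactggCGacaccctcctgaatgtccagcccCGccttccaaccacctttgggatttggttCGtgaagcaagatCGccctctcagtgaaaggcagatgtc
Itga5, chr15:103366742-103367041, strand -: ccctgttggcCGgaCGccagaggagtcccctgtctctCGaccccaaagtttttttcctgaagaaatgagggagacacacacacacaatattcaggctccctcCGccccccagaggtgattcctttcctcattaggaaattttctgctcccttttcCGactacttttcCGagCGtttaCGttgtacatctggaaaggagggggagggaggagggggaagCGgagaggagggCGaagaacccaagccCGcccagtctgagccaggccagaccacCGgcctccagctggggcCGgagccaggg
Cdh15, chr8:122848124-122848423, strand +: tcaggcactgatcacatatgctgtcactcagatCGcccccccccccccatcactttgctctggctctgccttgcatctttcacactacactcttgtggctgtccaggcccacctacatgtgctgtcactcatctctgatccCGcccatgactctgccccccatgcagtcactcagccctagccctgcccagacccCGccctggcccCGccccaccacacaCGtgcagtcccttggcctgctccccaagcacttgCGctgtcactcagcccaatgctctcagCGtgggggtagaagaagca
Itga11, chr9:62677605-62677904, strand +: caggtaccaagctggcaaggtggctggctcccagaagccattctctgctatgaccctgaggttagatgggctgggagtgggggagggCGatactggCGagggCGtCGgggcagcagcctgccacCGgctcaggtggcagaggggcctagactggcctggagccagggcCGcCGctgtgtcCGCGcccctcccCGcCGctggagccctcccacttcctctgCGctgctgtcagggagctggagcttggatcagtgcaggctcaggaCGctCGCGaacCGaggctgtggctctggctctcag
Cdh22, chr2:165234688-165234987, strand -: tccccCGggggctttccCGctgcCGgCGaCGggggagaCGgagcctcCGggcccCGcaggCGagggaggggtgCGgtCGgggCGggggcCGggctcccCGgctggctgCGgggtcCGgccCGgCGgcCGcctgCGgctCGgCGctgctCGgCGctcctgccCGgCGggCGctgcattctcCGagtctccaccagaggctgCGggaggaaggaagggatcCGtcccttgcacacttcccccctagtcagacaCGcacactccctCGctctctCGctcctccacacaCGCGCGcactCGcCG

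Itgb1 encodes the beta1 subunit shared by most integrins of these cells, and Itga5 and Itgav encode its partners for fibronectin and other ligands with an RGD sequence. All 3 rose in both mutant genotypes, and all 3 were higher in TMut than in TFoCa. Itgb1 had normalized counts of 26762 and 20231 in TFoCa, 33557 and 31871 in TMut, and 13749.5, 13419 and 13989.8 in WT. Each WT library lay below every mutant library, and the TMut pair lay above the TFoCa pair. The log2 fold change against WT was 0.76 ± 0.13 (adjusted p = 0.013) in TFoCa and 1.25 ± 0.13 (adjusted p = 0.0004) in TMut, and 0.49 ± 0.14 (adjusted p = 0.03) for TMut minus TFoCa. Itga5, the fibronectin receptor subunit, had 6362 and 5336 in TFoCa, 8611 and 8716 in TMut, and 2917, 3173 and 3151 in WT. The 3 genotypes did not overlap. Its log2 fold change was 0.92 ± 0.10 (adjusted p = 0.0039) in TFoCa and 1.49 ± 0.10 (adjusted p = 0.00013) in TMut, with 0.57 ± 0.11 (adjusted p = 0.0084) between the mutants. Itgav, a receptor subunit for vitronectin and for latent TGF-beta, had 5305 and 4069 in TFoCa, 7162 and 7519 in TMut, and 2678, 2579 and 2892 in WT. Again the genotypes stood in the same order with no overlap. For Itgav, the log2 fold change was 0.78 ± 0.13 (adjusted p = 0.013) in TFoCa, 1.44 ± 0.13 (adjusted p = 0.00024) in TMut and 0.66 ± 0.14 (adjusted p = 0.01) between them. In TFoCa versus WT, Itgb1 lost its call without WT replicate 2 and WT replicate 3 (adjusted p from 0.0526 to 0.0621). Itgav lost it there without WT replicate 2 (adjusted p = 0.057). Between the mutants, Itgb1 lost its call without WT replicate 2, WT replicate 3, TFoCa replicate 2 (0.29 log2 units), TMut replicate 1 and TMut replicate 2, and with quantile normalization (0.23 log2 units) and in a fit without the third genotype (adjusted p from 0.0592 to 0.323). Itgav lost it without TMut replicate 2 (adjusted p = 0.0587).

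The other RGD-binding subunits were not called. Itga8, whose product binds nephronectin, averaged 805 in TFoCa, 607 in TMut and 627 in WT. Its TFoCa libraries lay on either side of WT, at 1248 and 361, against 602 to 668 in WT. Relative to WT, its log2 fold change was 0.99 without TFoCa replicate 2 (adjusted p = 0.0137) and -0.79 without TFoCa replicate 1 (adjusted p = 0.0321). Against TFoCa, its TMut value was -1.04 without TFoCa replicate 2 (adjusted p = 0.00631) and 0.74 without TFoCa replicate 1 (adjusted p = 0.0198). Itga2b, the platelet subunit that binds fibrinogen with beta3, had 326 and 314 in TFoCa, 351 and 345 in TMut, and 271, 239 and 173 in WT. The log2 fold change of Itga2b was 0.51 ± 0.23 (adjusted p = 0.21) in TFoCa and 0.64 ± 0.23 (adjusted p = 0.059) in TMut. In TMut versus WT it was called without WT replicate 1, and with quantile normalization and with DESeq2 (adjusted p from 0.0312 to 0.0475). Of 9 megakaryocyte markers only Gp1ba and Nfe2 were measured, with a summed count of 76.6 to 82.8 in TFoCa, 49.5 to 75.6 in TMut and 39.1 to 52.0 in WT, and neither was called.

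The beta subunits that pair with alphav did not move together. Itgb3 rose in both mutants, Itgb5 rose in TMut and Itgb8 fell in TMut. Itgb3, of the vitronectin and osteopontin receptor, had 540.2 and 796 in TFoCa, 1589.5 and 1069 in TMut, and 199, 267 and 219 in WT. All mutant libraries were above WT, those of TMut highest. For Itgb3, the log2 fold change was 1.53 ± 0.25 (adjusted p = 0.012) in TFoCa, 2.52 ± 0.25 (adjusted p = 0.00036) in TMut and 0.99 ± 0.27 (adjusted p = 0.026) between the mutants. Itgb5, a second vitronectin receptor subunit, had 6551 and 3777 in TFoCa, 6629.9 and 7616 in TMut, and 4124, 4146 and 3252 in WT. The TFoCa libraries overlapped WT and the TMut pair did not. For Itgb5, the log2 fold change was 0.90 ± 0.23 (adjusted p = 0.017) in TMut, 0.38 ± 0.23 (adjusted p = 0.34) in TFoCa and 0.51 ± 0.25 (adjusted p = 0.14) between the mutants. Itgb8, whose product with alphav releases active TGF-beta in the developing brain, had 1661 and 1355 in TFoCa, 752 and 389 in TMut, and 1268, 1570.1 and 1829 in WT. Both TMut libraries were below all others. It fell by 1.51 ± 0.28 log2 units in TMut versus WT (adjusted p = 0.0049) and by 1.47 ± 0.31 versus TFoCa (adjusted p = 0.01). Itgb5 lost its TMut call without WT replicate 3 and TMut replicate 2 (adjusted p from 0.0586 to 0.101). In TFoCa versus WT Itgb5 was called without TFoCa replicate 2 (0.78 log2 units) (adjusted p = 0.0355), and its values without 1 library at a time spanned -0.0153 to 0.78. In TMut versus TFoCa it was called without TFoCa replicate 1 (0.91 log2 units) (adjusted p = 0.0126), and its values without 1 library at a time spanned 0.12 to 0.91. Between the mutants, Itgb3 lost its call without TFoCa replicate 1 and TMut replicate 1, and in a fit without the third genotype (adjusted p from 0.0628 to 0.122).

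**Figure D2:**
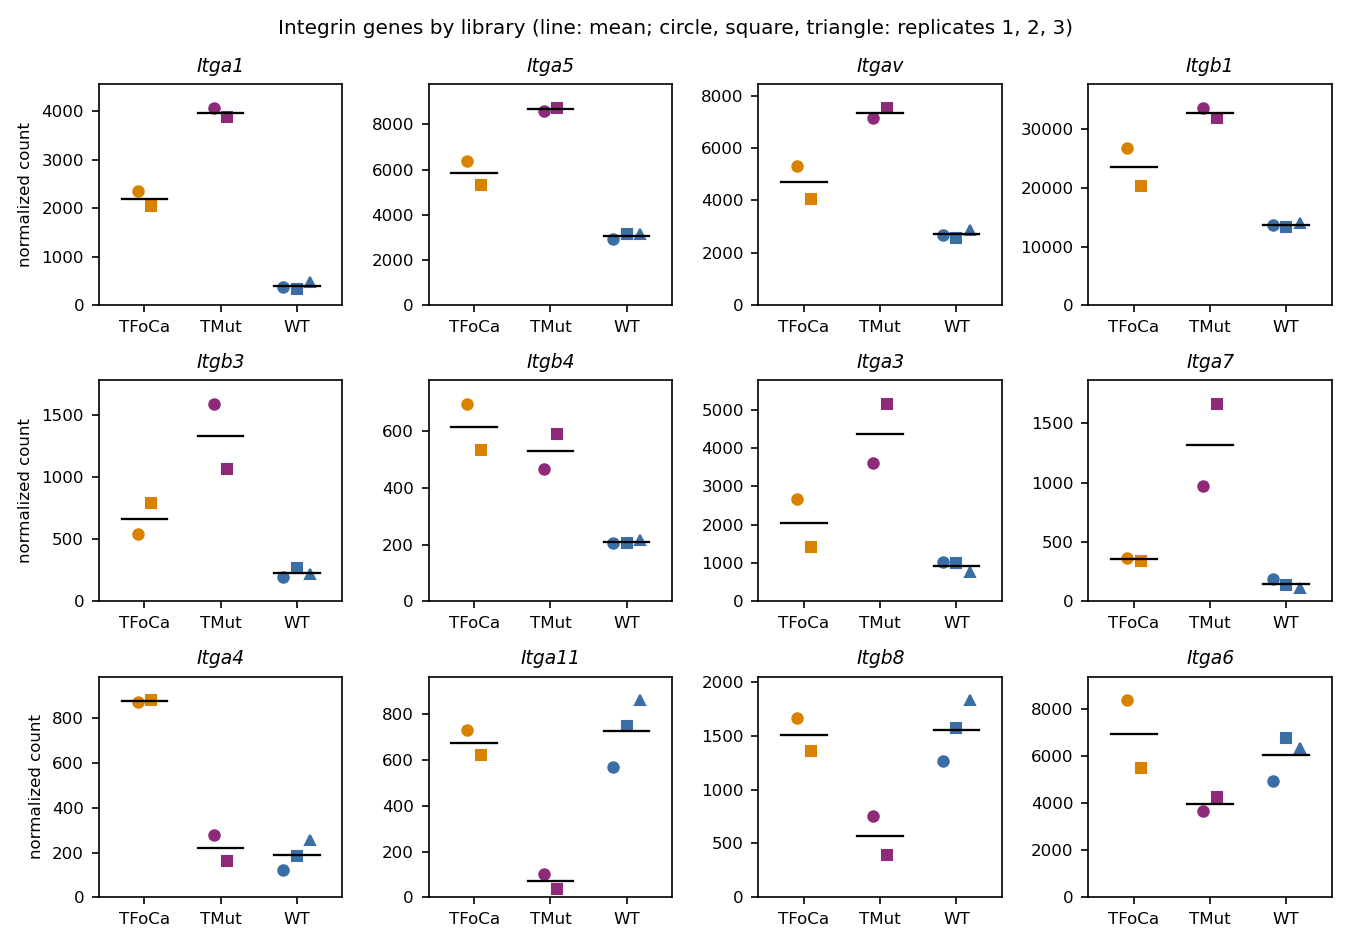
Normalized count of 12 integrin genes in each library, grouped as TFoCa, TMut and WT, with the mean as a line and each vertical axis starting at 0. Itgb1 runs from 13419 to 13990 in WT and from 31871 to 33557 in TMut, whereas Itga11 and Itgb8 are lowest in TMut.

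Of the laminin-binding subunits, Itga7 rose in both mutants, Itga3 rose in TMut and Itga6 was lower in TMut than in TFoCa. Itga7, the laminin receptor subunit of muscle, had 367 and 344 in TFoCa, 972 and 1663 in TMut, and 188, 141 and 115 in WT. The genotypes did not overlap, and TMut was highest. For Itga7, the log2 fold change was 1.29 ± 0.29 (adjusted p = 0.034) in TFoCa, 3.12 ± 0.29 (adjusted p = 0.00028) in TMut and 1.84 ± 0.32 (adjusted p = 0.005) between them. Itga3, which binds laminins of epithelial basement membranes, had 2682 and 1426 in TFoCa, 3612 and 5149 in TMut, and 1032, 1005 and 768 in WT. All mutant libraries were above WT. Its log2 fold change was 2.22 ± 0.28 (adjusted p = 0.00095) in TMut versus WT, 1.08 ± 0.28 (adjusted p = 0.056) in TFoCa versus WT and 1.14 ± 0.31 (adjusted p = 0.025) between the mutants. Itga6, a subunit used to mark neural stem cells, had 8379 and 5479.6 in TFoCa, 3671 and 4261 in TMut, and 4958, 6784 and 6354 in WT. The TMut pair lay below all other libraries. For Itga6, the log2 fold change was -0.60 ± 0.20 (adjusted p = 0.051) in TMut versus WT, 0.18 ± 0.20 (adjusted p = 0.63) in TFoCa versus WT and -0.78 ± 0.22 (adjusted p = 0.03) between the mutants. The TFoCa call of Itga7 ended without WT replicate 2, WT replicate 3, TFoCa replicate 1 and TFoCa replicate 2, and with quantile normalization and with limma-voom (adjusted p from 0.0522 to 0.106). Itga3 was called in TFoCa versus WT without TFoCa replicate 2, and with edgeR and with DESeq2 (adjusted p from 0.00131 to 0.0429), and its values without 1 library at a time spanned 0.62 to 1.53. Between the mutants it lost its call without TFoCa replicate 2 (0.69 log2 units) and TMut replicate 2, and in a fit without the third genotype (adjusted p from 0.0624 to 0.139). In TMut versus WT Itga6 was called without WT replicate 1, TFoCa replicate 1 and TFoCa replicate 2, and with a pseudocount of 8, at a mean of 50 or more, with quantile normalization, with DESeq2 and in a fit without the third genotype (adjusted p from 0.0169 to 0.0487). Its call against TFoCa ended without WT replicate 3, TFoCa replicate 1 (-0.47 log2 units), TMut replicate 1 and TMut replicate 2, and in a fit without the third genotype (adjusted p from 0.0519 to 0.115).

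Itgb4, the partner of alpha6 in hemidesmosomes, rose in both mutants. It had normalized counts of 696 and 533 in TFoCa, 468 and 592 in TMut, and 206, 205 and 217 in WT. Every mutant library was above every WT library, and the mutants overlapped each other. The log2 fold change of Itgb4 was 1.54 ± 0.19 (adjusted p = 0.0056) in TFoCa, 1.32 ± 0.19 (adjusted p = 0.0016) in TMut and -0.21 ± 0.21 (adjusted p = 0.46) for TMut minus TFoCa. Its genomic exons share 7.66% of their length with an antisense transcript, and the counting strand is not given in the sources used here. Exons of other members also overlap antisense transcripts, by 6.33% for Cdh9, 5.9% for Itgav, 5.05% for Itga8, 0.297% for Cdh8 and 0.111% for Itga7. Itga1 shares 3.68% with a transcript on its own strand.

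The collagen receptors did not move together. Itga1 rose in both mutants, Itga10 rose in TMut, Itga11 fell in TMut, and Itga2 was lower in TMut than in TFoCa. Itga1, which with beta1 binds basement membrane collagen, had 2343 and 2053 in TFoCa, 4056 and 3875 in TMut, and 379, 337 and 474 in WT. The genotypes did not overlap, with TMut highest and WT lowest. For Itga1, the log2 fold change was 2.48 ± 0.16 (adjusted p = 0.0012) in TFoCa, 3.33 ± 0.16 (adjusted p = 4.7e-05) in TMut and 0.85 ± 0.17 (adjusted p = 0.0092) between them. Itga11, a fibrillar collagen receptor subunit of mesenchymal cells, had 731 and 621 in TFoCa, 101 and 38.4 in TMut, and 569.6, 746 and 860.5 in WT. TFoCa overlapped WT and both TMut libraries were far below. For Itga11, the log2 fold change was -3.49 ± 0.39 (adjusted p = 0.00052) in TMut versus WT and -3.41 ± 0.42 (adjusted p = 0.0021) in TMut versus TFoCa, and its TFoCa value was -0.09 ± 0.39 (adjusted p = 0.92). Itga2, whose gene neighbours Itga1 on chromosome 13, encodes another collagen receptor subunit and had 220.3 and 70.6 in TFoCa, 23.0 and 9.61 in TMut, and 28.2, 34.2 and 35.7 in WT. The TFoCa libraries were highest and apart from each other. For Itga2, the log2 fold change was -2.98 ± 0.63 (adjusted p = 0.01) in TMut versus TFoCa, 1.91 ± 0.57 (adjusted p = 0.08) in TFoCa versus WT and -1.07 ± 0.57 (adjusted p = 0.17) in TMut versus WT. Itga10, of cartilage, had 212 and 173 in TFoCa, 356 and 291 in TMut, and 201, 129 and 181 in WT and so stood highest in TMut. For Itga10, the log2 fold change was 0.94 ± 0.26 (adjusted p = 0.024) in TMut versus WT and 0.75 ± 0.28 (adjusted p = 0.074) versus TFoCa. Of its exon length, 33.5% is shared with a second annotated transcript on its strand. Itga2 was called in TFoCa versus WT without TFoCa replicate 2, and with edgeR and with DESeq2 (adjusted p from 0.00403 to 0.045), and its values without 1 library at a time spanned 1.09 to 2.72. Its call between the mutants ended without TMut replicate 2 (adjusted p = 0.0558). Itga10 lost its TMut call without WT replicate 2, WT replicate 3, TMut replicate 1 and TMut replicate 2 (adjusted p from 0.0542 to 0.11). Between the mutants Itga10 was called with quantile normalization and with DESeq2 (adjusted p from 0.0291 to 0.0455).

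Itga4 and Itga9 encode the related alpha4 and alpha9 subunits. Both rose in TFoCa, and Itga9 also rose in TMut. Itga4, a receptor subunit for VCAM1 and fibronectin, had 872 and 880.0 in TFoCa, 278 and 161 in TMut, and 122, 186 and 254 in WT. The TFoCa pair stood far above all other libraries, and TMut overlapped WT. Its log2 fold change was 2.28 ± 0.35 (adjusted p = 0.01) in TFoCa, 0.24 ± 0.35 (adjusted p = 0.62) in TMut and -2.05 ± 0.38 (adjusted p = 0.0065) for TMut minus TFoCa. Its exons share 8.04% of their length with Cerkl on the other strand. Itga9, which binds tenascin-C, had 1307 and 1108 in TFoCa, 1465 and 1117 in TMut, and 689.6, 754 and 739 in WT. No mutant library overlapped WT, and the mutants overlapped each other. For Itga9, the log2 fold change was 0.73 ± 0.15 (adjusted p = 0.028) in TFoCa and 0.81 ± 0.15 (adjusted p = 0.0051) in TMut. The TFoCa call of Itga9 ended without WT replicate 1, WT replicate 2, WT replicate 3 and TFoCa replicate 1 (adjusted p from 0.083 to 0.0909).

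Integrin subunits of leukocytes were measured at low counts. Itgal, the alpha subunit of LFA-1, had 3.83 and 2.43 in TFoCa, 13.8 and 19.2 in TMut, and 20.4, 30.4 and 23.0 in WT. The TFoCa libraries were lowest. The log2 fold change of Itgal was -2.63 ± 0.48 (adjusted p = 0.017) in TFoCa versus WT, -0.55 ± 0.48 (adjusted p = 0.40) in TMut versus WT and 2.09 ± 0.52 (adjusted p = 0.019) between the mutants. Itgb7, which pairs with alpha4 or alphaE, had 11.5 and 12.2 in TFoCa, 46.1 and 137 in TMut, and 22.0, 56.4 and 41.4 in WT. The TFoCa pair was below all other libraries. For Itgb7, the log2 fold change was 2.65 ± 0.64 (adjusted p = 0.016) in TMut versus TFoCa, -1.58 ± 0.58 (adjusted p = 0.14) in TFoCa versus WT and 1.07 ± 0.58 (adjusted p = 0.18) in TMut versus WT. Itgae, whose product with beta7 binds E-cadherin, ranged from 15.8 to 26.8 in TFoCa, from 19.2 to 47.2 in TMut and from 21.9 to 40.6 in WT and was not called. Of 12 leukocyte markers, Fcer1g, Cd68 and Laptm5 were measured, with a summed count of 255 to 318 in TFoCa, 502 to 705 in TMut and 275 to 323 in WT. Ptprc, Spi1 and the others of that list, and Itgam, Itgax, Itgad and Itgb2, had no row under these symbols among the 18145 genes. Of the 3 measured, 0 were called in TFoCa versus WT and Laptm5 and Cd68 rose in TMut versus WT. Of all genes, 8.77% and 38.8% were called in these comparisons. Their part in the values of Itgal and Itgb7 was not tested. Itgal lost its call in TFoCa versus WT without WT replicate 1, WT replicate 2 and WT replicate 3 (adjusted p from 0.053 to 0.0814). Between the mutants it lost its call without TFoCa replicate 2 and TMut replicate 2, and in a fit without the third genotype (adjusted p from 0.057 to 0.091). With a pseudocount of 8, Itgal stood at -1.54 in TFoCa versus WT and 1.13 between the mutants. Itgb7 lost its call there without TMut replicate 2 (adjusted p = 0.0929).

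Type I cadherins moved in different directions. Cdh2 and Cdh4 fell in TMut, Cdh1 rose in TMut, Cdh15 rose in TFoCa, and Cdh1 and Cdh3 were higher in TMut than in TFoCa. Cdh2, N-cadherin of neural tissue, had 6806 and 7696 in TFoCa, 6374 and 4196 in TMut, and 11109.6, 10188 and 10314 in WT. Both mutant pairs were below WT. For Cdh2, the log2 fold change was -1.03 ± 0.17 (adjusted p = 0.0028) in TMut, -0.54 ± 0.17 (adjusted p = 0.09) in TFoCa and -0.48 ± 0.19 (adjusted p = 0.076) between the mutants. Cdh4, R-cadherin of the brain and retina, had 1799.8 and 4408 in TFoCa, 385 and 405 in TMut, and 4400.4, 6358 and 5984 in WT. The TMut libraries were below all others. For Cdh4, the log2 fold change was -3.80 ± 0.34 (adjusted p = 0.00025) in TMut versus WT, -0.97 ± 0.34 (adjusted p = 0.12) in TFoCa versus WT and -2.83 ± 0.37 (adjusted p = 0.0024) between the mutants. Cdh15, M-cadherin of muscle precursors, had 521 and 601 in TFoCa, 89.8 and 120.1 in TMut, and 76.9, 75.4 and 97.8 in WT. The TFoCa pair stood apart, and TMut overlapped WT. Its log2 fold change was 2.74 ± 0.25 (adjusted p = 0.0024) in TFoCa, 0.32 ± 0.25 (adjusted p = 0.34) in TMut and -2.42 ± 0.28 (adjusted p = 0.0018) for TMut minus TFoCa. In TFoCa versus WT Cdh2 was called without TMut replicate 1 and TMut replicate 2, and with DESeq2 and in a fit without the third genotype (adjusted p from 0.0236 to 0.036). Between the mutants it was called without TMut replicate 1 (-0.79 log2 units) (adjusted p = 0.00728), and its values without 1 library at a time spanned -0.79 to -0.18. Cdh4 was called in TFoCa without TFoCa replicate 2 (-1.61 log2 units) (adjusted p = 0.00859), and its values without 1 library at a time spanned -1.61 to -0.32.

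Cdh1 and Cdh3, E-cadherin and P-cadherin of epithelia, neighbour each other on chromosome 8. Cdh1 is also the cadherin of pluripotent cells. Cdh1 had 788 and 849.6 in TFoCa, 2498 and 7139 in TMut, and 1287, 2467 and 1714 in WT. The TFoCa pair was lowest, TMut replicate 2 was far above every other library, and TMut replicate 1 was just above the highest WT library. For Cdh1, the log2 fold change was 1.26 ± 0.43 (adjusted p = 0.049) in TMut versus WT, -1.10 ± 0.43 (adjusted p = 0.15) in TFoCa versus WT and 2.37 ± 0.47 (adjusted p = 0.008) between the mutants. Cdh3 had 325 and 74.2 in TFoCa, 465 and 1151 in TMut, and 344, 891 and 614 in WT. TMut overlapped WT, and TFoCa was lowest. The log2 fold change of Cdh3 was 2.23 ± 0.74 (adjusted p = 0.05) in TMut versus TFoCa, -1.87 ± 0.68 (adjusted p = 0.13) in TFoCa versus WT and 0.35 ± 0.68 (adjusted p = 0.71) in TMut versus WT. The TMut call of Cdh1 against WT ended without WT replicate 1, WT replicate 3, TFoCa replicate 1, TFoCa replicate 2 and TMut replicate 2 (0.51 log2 units), and with quantile normalization, with robust eBayes and in a fit without the third genotype (adjusted p from 0.0502 to 0.297). Without TMut replicate 1 it was 2.02. Cdh1 was called in TFoCa versus WT without TMut replicate 1 and TMut replicate 2, and with DESeq2 and in a fit without the third genotype (adjusted p from 0.026 to 0.0438). Cdh3 was called there without TFoCa replicate 1 (-2.93 log2 units) (adjusted p = 0.0352), and its values without 1 library at a time spanned -2.93 to -0.82. Between the mutants Cdh3 lost its call without WT replicate 1, WT replicate 2, WT replicate 3, TFoCa replicate 2 (1.17 log2 units) and TMut replicate 2, and with a pseudocount of 0.5, with robust eBayes, with limma-voom, with edgeR, with DESeq2 and in a fit without the third genotype (adjusted p from 0.0507 to 0.243).

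Cdh1, Cdh3 and Itgb7 were highest in TMut replicate 2, and so were the sums of epithelial and of pluripotency markers. The 12 epithelial markers summed to 2193 to 3470.3 in TFoCa, 8879 to 20072 in TMut and 2966 to 4810.4 in WT, with 2 risen and 2 fallen in TFoCa versus WT, 6 risen in TMut versus WT and 10 risen in TMut versus TFoCa. The 8 pluripotency markers summed to 1191 to 1498 in TFoCa, 13116 to 49126 in TMut and 14041 to 28322 in WT. All 8 fell in TFoCa versus WT, 1 rose and 1 fell in TMut versus WT, and 8 rose in TMut versus TFoCa. Of all genes, 8.77% were called in TFoCa versus WT, 38.8% in TMut versus WT and 35.8% in TMut versus TFoCa. Nanog, Esrrb, Klf2 and Tfcp2l1 were highest in WT replicate 2, and Pou5f1, Zfp42, Dppa5a and Tdgf1 in TMut replicate 2. Nanog, for example, had 156 and 201 in TFoCa, 1161 and 2315 in TMut, and 1505, 2968 and 1960 in WT. WT replicate 2 was highest and WT replicate 1 lowest among WT libraries for Cdh1, Cdh3 and Itgb7. The epithelial markers did not share 1 order: Epcam had 308 and 307 in TFoCa, 1178 and 4155 in TMut, and 905, 1489 and 918 in WT, and Krt8 had 971 and 568 in TFoCa, 2711 and 4822 in TMut, and 279, 406 and 430.2 in WT. For Cdh15, the 6 measured muscle lineage markers summed to 2266 to 6316 in TFoCa, 1554 to 1792 in TMut and 989 to 1711 in WT, and 4 of them rose in TFoCa versus WT. Myod1, the muscle determination factor, had 418 and 419 in TFoCa, 41.5 and 36.0 in TMut, and 78.5, 31.7 and 80.5 in WT, with the TFoCa pair apart as for Cdh15. Pax7 and Pax3 did not share this order, and their TFoCa libraries overlapped WT. Pax7 had 47.9 and 110 in TFoCa, and 195, 74.8 and 108 in WT. Pax3 had 187 and 826 in TFoCa, and 856, 479 and 606 in WT. The TFoCa libraries also differed in Des, at 841 and 3420. The part of these markers' cells in the results was not tested.

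**Figure D3:**
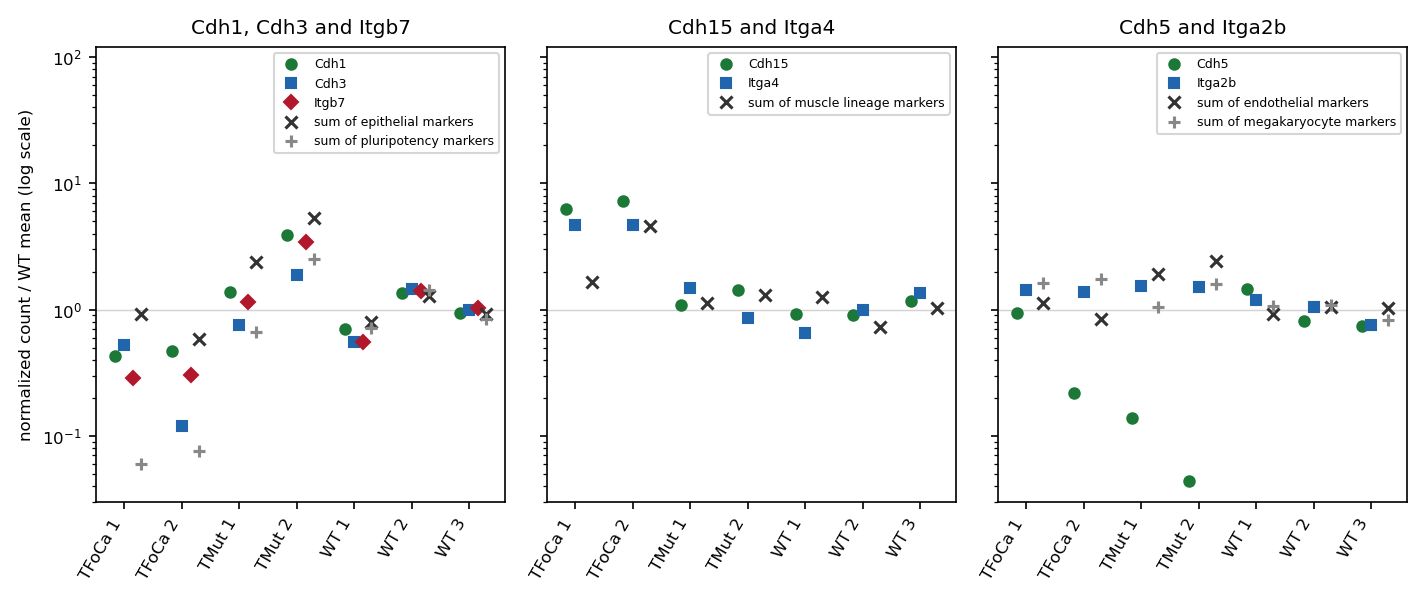
Normalized count of members and summed count of marker lists in each library, divided by the WT mean, on a log axis, with TFoCa and TMut libraries left of WT. In the first panel Cdh1, Cdh3, Itgb7 and both marker sums are highest in TMut replicate 2, in the second the TFoCa pair is high for Cdh15 and Itga4, and in the third Cdh5 is lowest in TMut replicate 2 while the endothelial sum is highest there.

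**Figure D4:**
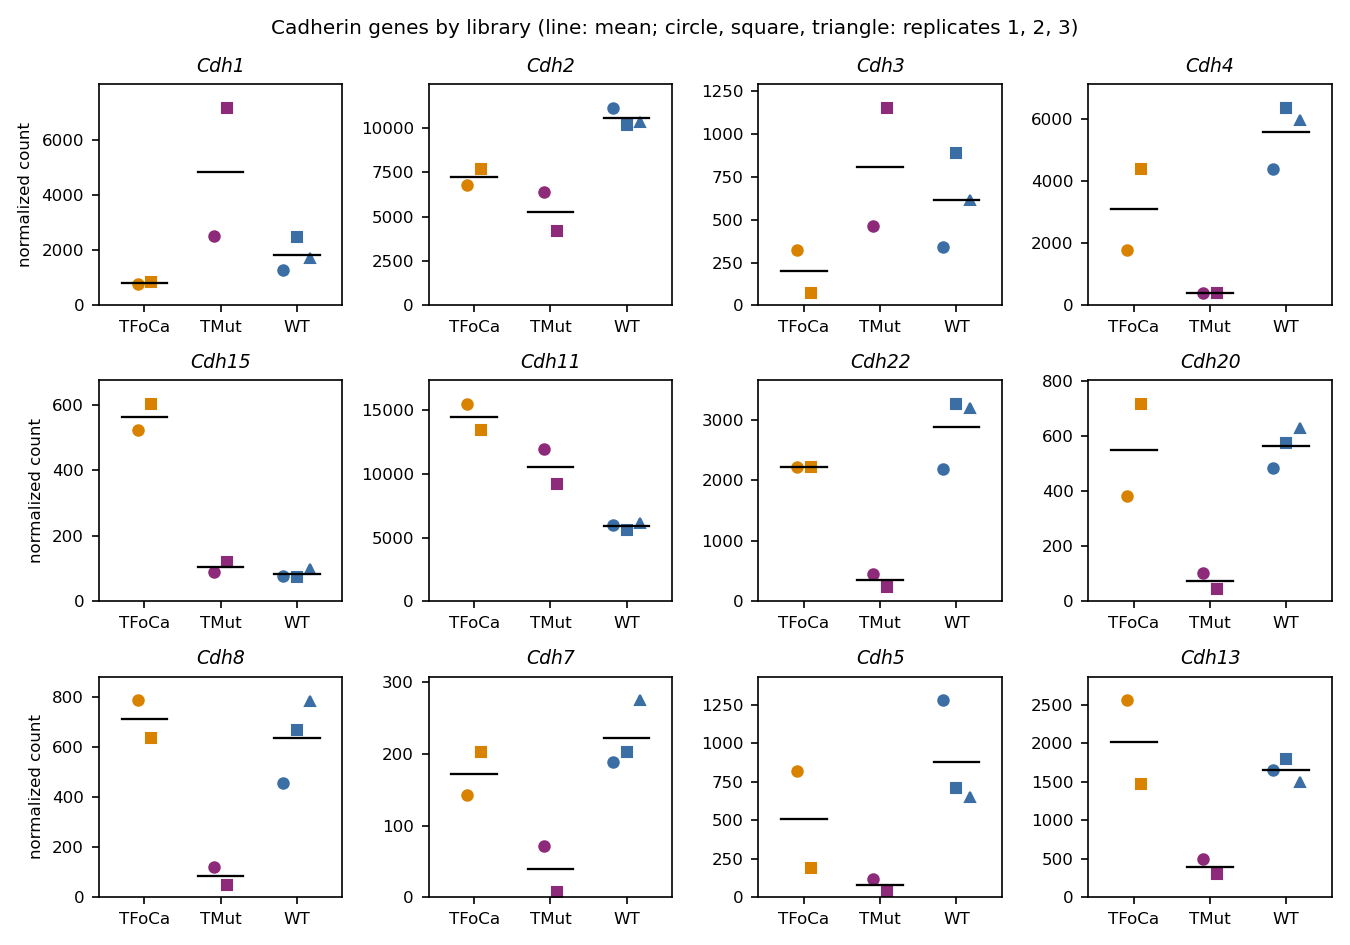
Normalized count of 12 cadherin genes in each library, grouped as TFoCa, TMut and WT, with the mean as a line and each vertical axis starting at 0. Cdh15 is high in the TFoCa pair alone, at 521 and 601, and Cdh4, Cdh22, Cdh20 and Cdh8 are lowest in the TMut pair.

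Type II cadherins, many of which mark brain regions and neuron classes, fell more often than they rose in TMut. Of 11, 1 rose and 5 fell in TMut versus WT (median log2 fold change -1.69), 1 rose in TFoCa versus WT (median 0.07) and 7 fell in TMut versus TFoCa (median -1.76). Of all genes, 18.4% rose and 20.4% fell in TMut versus WT, 5.25% rose in TFoCa versus WT and 18.5% fell in TMut versus TFoCa. In TFoCa versus WT 0 fell by limma, edgeR or DESeq2, and at an unadjusted p under 0.05 limma gave 1, Cdh24. All 10 neuronal markers fell in TMut versus WT (0 in TFoCa versus WT), with a summed count of 51467 to 52331 in TFoCa, 9698 to 16764 in TMut and 65009 to 69002 in WT, and the part of neurons in these values was not tested. Cdh22, PB-cadherin of the brain, had 2223 and 2225 in TFoCa, 454 and 239 in TMut, and 2181, 3257 and 3190.0 in WT. TFoCa overlapped WT and the TMut pair was far below. For Cdh22, the log2 fold change was -3.10 ± 0.28 (adjusted p = 0.00026) in TMut versus WT, -0.35 ± 0.28 (adjusted p = 0.49) in TFoCa versus WT and -2.75 ± 0.31 (adjusted p = 0.0017) between the mutants. Cdh20 had 383 and 717 in TFoCa, 104 and 45.6 in TMut, and 485, 576 and 629 in WT, with log2 fold changes of -3.01 ± 0.39 (adjusted p = 0.001) in TMut versus WT and -2.91 ± 0.43 (adjusted p = 0.0031) versus TFoCa. Cdh8 had 788 and 635 in TFoCa, 123 and 50.4 in TMut, and 458, 669 and 783 in WT, with log2 fold changes of -2.96 ± 0.39 (adjusted p = 0.0011) in TMut versus WT and -3.15 ± 0.42 (adjusted p = 0.0025) versus TFoCa. In both, TFoCa overlapped WT and the TMut pair was below all other libraries. Cdh7 had 143 and 202 in TFoCa, 71.4 and 7.20 in TMut, and 188, 202 and 275 in WT. TMut replicate 2 was lowest by far. For Cdh7, the log2 fold change was -3.17 ± 0.79 (adjusted p = 0.016) in TMut versus WT and -2.81 ± 0.86 (adjusted p = 0.038) versus TFoCa. Cdh7 lost its call against WT without WT replicate 3 (adjusted p = 0.0544). Its value against WT was -1.60 without TMut replicate 2, where it stayed called. Against TFoCa it lost its call without WT replicate 1, WT replicate 2, WT replicate 3, TFoCa replicate 1, TFoCa replicate 2 and TMut replicate 2 (-1.24 log2 units), and with quantile normalization, with edgeR and in a fit without the third genotype (adjusted p from 0.0529 to 0.119). Without TMut replicate 1 that value was -4.38.

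Cdh11, OB-cadherin of mesenchyme, was the type II gene that rose. It had 15491 and 13462 in TFoCa, 11935 and 9216 in TMut, and 5987, 5643 and 6142 in WT. The WT libraries were lowest and the TFoCa pair highest. For Cdh11, the log2 fold change was 1.29 ± 0.13 (adjusted p = 0.0031) in TFoCa, 0.82 ± 0.13 (adjusted p = 0.0024) in TMut and -0.46 ± 0.14 (adjusted p = 0.039) for TMut minus TFoCa. The difference between the mutants lost its call without WT replicate 1, WT replicate 2, WT replicate 3, TFoCa replicate 1 and TMut replicate 2 (-0.27 log2 units), and in a fit without the third genotype (adjusted p from 0.0585 to 0.213). Among 12 mesenchymal markers, 9 rose and 0 fell in TFoCa versus WT and 5 rose and 3 fell in TMut versus WT, with a summed count of 362860.0 to 420938 in TFoCa, 221281 to 302548 in TMut and 142324 to 155020.0 in WT. The part of mesenchymal cells in the values of Cdh11 was not tested. Cdh8, Cdh11 and Cdh5 follow each other on chromosome 8. Cdh5, VE-cadherin of endothelium, had 819.9 and 192 in TFoCa, 122 and 38.4 in TMut, and 1279, 708 and 650.0 in WT. TFoCa replicate 1 lay within WT and TFoCa replicate 2 below it, and the TMut pair was lowest. Its log2 fold change was -3.59 ± 0.68 (adjusted p = 0.0053) in TMut versus WT, -1.07 ± 0.68 (adjusted p = 0.37) in TFoCa versus WT and -2.52 ± 0.75 (adjusted p = 0.034) between the mutants. The call between the mutants ended without WT replicate 2, WT replicate 3, TFoCa replicate 1 (-1.47 log2 units) and TMut replicate 2, and with quantile normalization, with limma-voom and in a fit without the third genotype (adjusted p from 0.0522 to 0.183). Relative to WT, its TFoCa value spanned -2.12 to -0.0315 without 1 library at a time. The 10 endothelial markers had a summed count of 1574 to 2106 in TFoCa, 3602 to 4589.8 in TMut and 1728 to 1971 in WT. Of these 10, 4 rose and 0 fell in TMut versus WT (median log2 fold change 0.13), which is near the share of all genes. Of all genes, 8.77% were called in TFoCa versus WT and 38.8% in TMut versus WT. Emcn had 279.7 and 97.4 in TFoCa, 1035 and 1180.2 in TMut, and 147, 164 and 192 in WT, whereas Kdr had 275 and 80.3 in TFoCa, 112 and 194 in TMut, and 428, 285 and 224 in WT. The part of endothelial cells in the values of Cdh5 was not tested.

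Cdh6, K-cadherin of kidney and of neural crest, was lower in TMut than in TFoCa. It had 4090.1 and 2091 in TFoCa, 1228 and 908 in TMut, and 1328, 2064 and 2225 in WT, with TFoCa replicate 1 highest. For Cdh6, the log2 fold change was -1.47 ± 0.35 (adjusted p = 0.016) between the mutants, -0.79 ± 0.32 (adjusted p = 0.088) in TMut versus WT and 0.68 ± 0.32 (adjusted p = 0.24) in TFoCa versus WT. The call between the mutants ended without TFoCa replicate 1 and TMut replicate 2 (adjusted p from 0.0586 to 0.0938). In TMut versus WT Cdh6 was called without WT replicate 1, TFoCa replicate 1 and TFoCa replicate 2, and with DESeq2 and in a fit without the third genotype (adjusted p from 0.031 to 0.0478). Its TFoCa value against WT spanned 0.19 to 1.16 without 1 library at a time. Of neural crest and Schwann markers (8 of 8 measured), 0 were called in TFoCa versus WT and 1 fell in TMut versus WT. Of all genes, 8.77% and 38.8% were called there. The summed count of these markers was 2269 to 7919.9 in TFoCa, 2688 to 3707 in TMut and 3055 to 3748 in WT. Cdh24 had 1742 and 1212 in TFoCa, 1364 and 1480.3 in TMut, and 2499, 1754 and 2025 in WT. The log2 fold change of Cdh24 was -0.51 ± 0.20 (adjusted p = 0.15) in TFoCa and -0.54 ± 0.20 (adjusted p = 0.061) in TMut. In TMut versus WT Cdh24 was called without TFoCa replicate 1 and TFoCa replicate 2, and with DESeq2 and in a fit without the third genotype (adjusted p from 0.028 to 0.0318). Cdh9, Cdh10 and Cdh18, neuronal type II cadherins, were not called. Cdh10 averaged 267 in TFoCa, 183 in TMut and 269 in WT, and Cdh18 averaged 57.3 in TFoCa, 18.4 in TMut and 51.4 in WT (-1.57 ± 0.59, adjusted p = 0.068 on the log2 scale in TMut versus WT). Cdh9, which with Cdh6 and Cdh10 lies in a row on chromosome 15, averaged 21.9 in TFoCa, 4.75 in TMut and 16.1 in WT. For Cdh9, the log2 fold change was -1.76 ± 0.83 (adjusted p = 0.13) in TMut versus TFoCa. Cdh18 was called in TMut versus WT without TMut replicate 2 (adjusted p = 0.0373), and its values without 1 library at a time spanned -2.31 to -0.83. Cdh9 was called between the mutants without TFoCa replicate 2 (-2.84 log2 units) (adjusted p = 0.0323), and its values without 1 library at a time spanned -2.84 to -0.67.

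Of the non-classical cadherins, Cdh13, a GPI-anchored cadherin without a cytoplasmic tail, had 2561 and 1470.3 in TFoCa, 498 and 304 in TMut, and 1654, 1803 and 1498 in WT. The TMut pair was below all other libraries. For Cdh13, the log2 fold change was -2.08 ± 0.28 (adjusted p = 0.0011) in TMut versus WT and -2.32 ± 0.30 (adjusted p = 0.0023) versus TFoCa, and its TFoCa value was 0.24 ± 0.28 (adjusted p = 0.64). Cdh26 had 46.9 and 63.3 in TFoCa, 2.30 and 14.4 in TMut, and 12.6, 12.7 and 18.4 in WT, so the TFoCa pair was highest at low counts. For Cdh26, the log2 fold change was -2.96 ± 0.74 (adjusted p = 0.019) in TMut versus TFoCa, 1.86 ± 0.68 (adjusted p = 0.13) in TFoCa versus WT and -1.10 ± 0.68 (adjusted p = 0.23) in TMut versus WT. The first of these lost its call without TFoCa replicate 2, and in a fit without the third genotype (adjusted p from 0.0642 to 0.0678). It was -1.85 without TMut replicate 1. The second was called without TMut replicate 1 and TMut replicate 2, and in a fit without the third genotype (adjusted p from 0.0358 to 0.045). The third was called without TMut replicate 2 (-2.21 log2 units) (adjusted p = 0.03), and its values without 1 library at a time spanned -2.21 to 0.008. Cdh17, of intestine, and Cdh23, of the hair cell tip link, were not called and ranged from 9.41 to 51.7 and from 34.6 to 126 over all libraries.

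Levels were also set against each other per kilobase of annotated exon. Among beta subunits, Itgb1 held 75.0% and 78.0% in TFoCa, 78.2% and 75.8% in TMut, and 71.4%, 70.1% and 74.7% in WT of the summed level per kilobase, and Itgb5 was second in every library. Among alpha subunits, Itga5 held 32.0% and 36.6% in TFoCa, 41.0% and 38.2% in TMut, and 29.3%, 28.3% and 28.6% in WT. Itga6 held 23.0% and 20.6% in TFoCa, 9.56% and 10.2% in TMut, and 27.2%, 33.1% and 31.6% in WT, so it was close to Itga5 in WT, at 27.2% to 33.1% beside 28.3% to 29.3%, and well below it in TMut. Itga3 held 11.6% and 8.46% in TFoCa, 14.9% and 19.5% in TMut, and 8.96%, 7.74% and 6.03% in WT. The leading alpha subunit per kilobase was thus Itga5 in every TFoCa and TMut library and in WT replicate 1, and Itga6 in WT replicates 2 and 3. Among cadherins, Cdh2 led in each WT library and Cdh11 in each TFoCa library. Cdh2 held 15.3% and 18.5% in TFoCa, 21.5% and 12.5% in TMut, and 26.6%, 21.8% and 22.6% in WT. Cdh11 held 31.5% and 29.3% in TFoCa, 36.5% and 25.0% in TMut, and 13.0%, 10.9% and 12.2% in WT. Cdh1 held 3.12% and 3.60% in TFoCa, 14.9% and 37.6% in TMut, and 5.43%, 9.31% and 6.62% in WT, and so was the leading cadherin of TMut replicate 2 but not of TMut replicate 1, where Cdh11 led. The 21 integrin genes summed to normalized counts of 66606 and 48958 in TFoCa, 74388 and 75443 in TMut, and 34324, 36444 and 36199 in WT. The 20 cadherin genes summed to 39106 and 36289 in TFoCa, 26008 and 25552 in TMut, and 33557, 37176 and 36632 in WT. The integrin sums of all mutant libraries were above WT, and the cadherin sums of the TMut pair were below every other library.

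**Figure D5:**
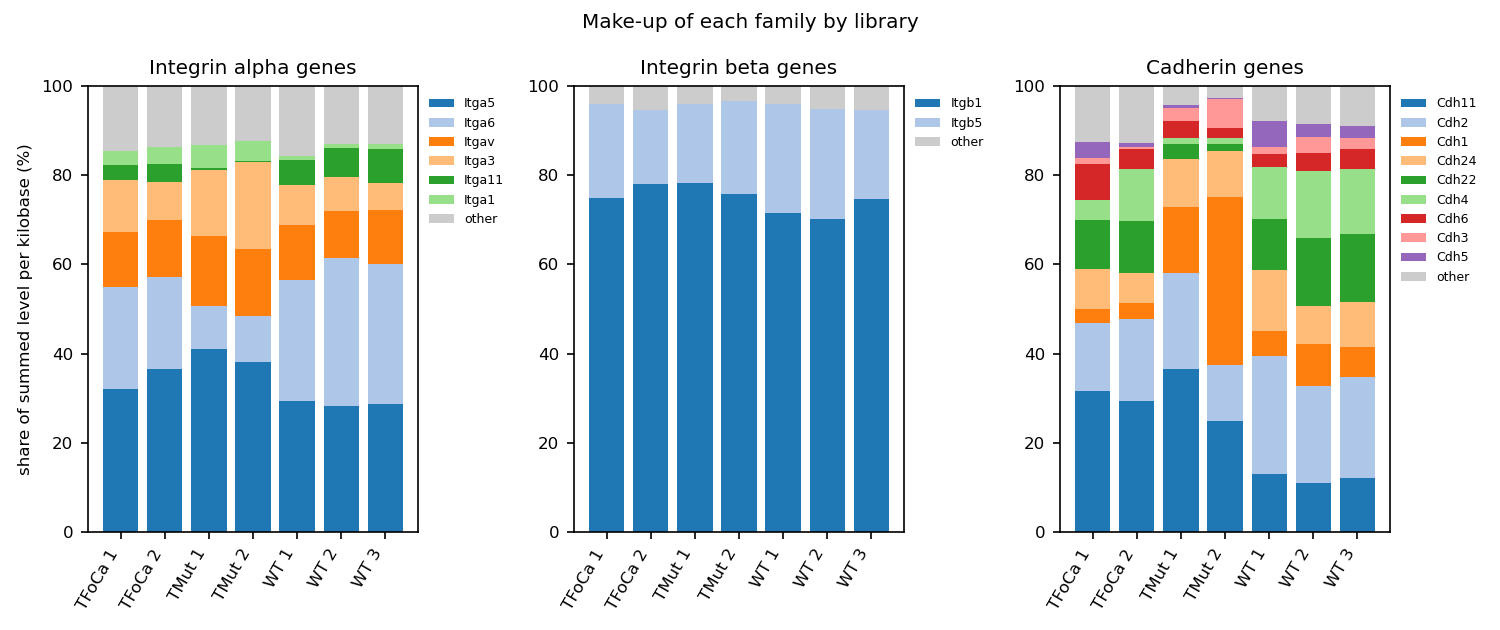
Share (%) of each gene in the summed level per kilobase of exon of the integrin alpha, integrin beta and cadherin genes, in each library, where genes under 5% in every library are pooled as other. Itgb1 fills 70.1% to 78.2% of the beta bars, Itga6 narrows in TMut, and Cdh1 takes 37.6% of the cadherin bar of TMut replicate 2.

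Genes that work with integrins and cadherins were taken as lists. The lists were chosen with earlier results of these data known, so their counts are descriptions and not a test against all genes. Of all genes, 8.77% were called in TFoCa versus WT, 38.8% in TMut versus WT and 35.8% between the mutants. Of 30 focal adhesion partners, 9 rose and 0 fell in TFoCa versus WT (median log2 fold change 0.39), 20 rose and 3 fell in TMut versus WT (median 0.79) and 13 rose and 4 fell in TMut versus TFoCa (median 0.45). Zyx, zyxin of actin-bound adhesions, rose in both mutants (0.93 ± 0.09, adjusted p = 0.0024 in TFoCa and 1.80 ± 0.09, adjusted p = 4.7e-05 in TMut), and Actn1, an actin crosslinker, rose in TMut (1.64 ± 0.09, adjusted p = 6.1e-05). Of 13 laminin and nidogen chains, 5 rose and 0 fell in TFoCa (median 0.79) and 4 rose and 2 fell in TMut (median 0.38), and 7 fell in TMut versus TFoCa while 1 rose. The 6 of 13 called in TMut versus WT are near the share of all genes. Lama2, a laminin chain of muscle, rose in TFoCa (2.14 ± 0.23, adjusted p = 0.0036), and Lamc3, with 708 and 138 in TFoCa, 13.8 and 26.4 in TMut, and 1568, 1381 and 1288 in WT, fell in TMut (-6.13 ± 0.61, adjusted p = 0.00037). Of 13 other integrin ligands, 10 rose and 0 fell in TFoCa (median 1.37) and 10 rose and 1 fell in TMut (median 2.00). In TMut versus TFoCa, 4 of these ligands rose and 1 fell (median 0.34), near the share of all genes. Fn1, the ligand of alpha5 beta1, rose in TFoCa (1.76 ± 0.12, adjusted p = 0.0012), as did Tnc, a ligand of alpha9 (2.67 ± 0.23, adjusted p = 0.0021). In TMut the smallest adjusted p values were those of Thbs1 (2.96 ± 0.13, adjusted p = 4.3e-05) and Spp1, osteopontin, a ligand of alphav beta3 (5.48 ± 0.22, adjusted p = 4.3e-05).

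Of 15 measured catenins and junction partners, 0 rose and 1 fell in TFoCa (median -0.06), 4 rose and 7 fell in TMut (median -0.21) and 4 rose and 4 fell in TMut versus TFoCa. Ctnnd2, a neuronal catenin of the p120 family, fell in TFoCa (-0.83 ± 0.17, adjusted p = 0.025) and in TMut (-2.61 ± 0.17, adjusted p = 0.0001), and Jup, plakoglobin, rose in TMut (1.77 ± 0.13, adjusted p = 0.00013). Of 8 repressors of cadherin genes, 2 rose and 0 fell in TFoCa and 3 rose and 2 fell in TMut. Snai2 rose in TFoCa (1.93 ± 0.21, adjusted p = 0.0035) and in TMut (3.01 ± 0.21, adjusted p = 0.00013). Twist1 rose in both as well (1.31 ± 0.19, adjusted p = 0.0084 in TFoCa and 1.25 ± 0.19, adjusted p = 0.0018 in TMut).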

How the data were processed

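RNA was sequenced from 7 neural stem cell libraries. The submitters' processing notes name the mm39 genome and, with no roles given, featureCounts, DESeq2, SAMtools, STAR 2.7.3a and Trim Galore 0.6.5 as the authors' tools. The annotation, the strand setting and whether mates were counted singly are not given in the sources used here. The authors deposited a normalized signal per gene, and its values equal whole counts divided by median-of-ratios size factors. Of the values, 100% were whole reads within 0.001 read once multiplied by these factors, and 70.29% to 79.32% of the counts of 1 to 20 were even.

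The main test was limma 3.58.1 (R 4.3.3) with an intensity trend on log2(normalized count + 1), in 1 model of genotype over 3 WT, 2 TFoCa and 2 TMut lines (4 residual degrees of freedom), for genes that reached 10 normalized counts in 2 or more libraries, with Benjamini-Hochberg adjustment over all genes tested. edgeR 4.0.16 on the recovered reads called 1606 genes in TFoCa versus WT, 7038 in TMut versus WT and 6375 in TMut versus TFoCa. DESeq2 1.42.0, limma-voom, TMM and quantile scaling, other pseudocounts and filters, robust eBayes, a fit to each pair of genotypes, a replicate block and leaving out each library were also run. Fold changes are mutant minus WT, or TMut minus TFoCa.

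The members and lists were chosen with earlier results of these data known. Values in every library are given for members called in some comparison and for uncalled ones averaging 1000 or more in some genotype. Of each list the 2 called genes with the smallest adjusted p in a comparison may be named, and single markers named with their levels only were chosen after their values were seen. Exon lengths (GENCODE M21) and promoters (RefSeq) are of GRCm38. Each line is 1 sample, and whether lines share an embryo is not stated, so p-values measure the spread between these lines.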

Additional observations from a re-analysis of the deposited data

How the results depend on the processing

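Of the called members, 6 of 12 in TFoCa versus WT, 19 of 23 in TMut versus WT and 13 of 27 in TMut versus TFoCa stayed called under every alternative run, and 0 changed sign. Uncalled members called under some alternative numbered 9, 6 and 6. Without 1 library at a time, 5 to 13 integrin and 2 to 5 cadherin genes were called in TFoCa versus WT, 7 to 14 integrin genes in TMut versus TFoCa, and of all genes 495 to 1768 in TFoCa versus WT, 4329 to 8127 in TMut versus WT and 3164 to 5940 in TMut versus TFoCa. A mutant genotype left with 1 library was assumed to vary like the others.

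In TFoCa versus WT, DESeq2 called 4 cadherin genes and 2947 of all genes, against 2 and 1590 with limma. Fitted without the third genotype, 5 cadherin genes were called there, and 9 integrin genes, 8 cadherin genes and 3474 of all genes in TMut versus TFoCa, against 14, 13 and 6491. Calls of at least 1 log2 unit left 6 integrin genes and 810 of all genes in TFoCa versus WT, 3572 of all genes in TMut versus WT, and 8 integrin genes and 3250 of all genes in TMut versus TFoCa, by construction fewer.

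Libraries with the same replicate number deviated together with correlations of 0.0192 to 0.185, all positive. In a genotype of 2 libraries the deviations from the mean mirror each other, so these correlations cannot exclude a pairing. The main fit did not use the numbers as a pairing. With the replicate number as a block, 5 integrin genes and 555 of all genes were called in TFoCa versus WT and 4620 of all genes in TMut versus WT, and Itga11 stood at 0.0471 in TFoCa. Called members of both directions together moved by less than 1.5 times in the other member counts, but 6 integrin genes and 1 cadherin gene rose in TMut versus TFoCa, against 9 and 2 without the block. Small counts of 1 direction also moved under other settings, for example where Cdh1, Cdh3, Itga6 or Itgal lost or gained a call. For these and the DESeq2 counts the cause was not tested. In limma with the block, Itga7, Itga9, Itgal, Itgb1 and Itgb3 lost their calls in TFoCa versus WT (adjusted p from 0.0536 to 0.142). So did Cdh7 and Itgb5 in TMut versus WT (adjusted p = 0.0541 and 0.0642). Between the mutants, Cdh3, Cdh7, Itga6, Itgal, Itgb1 and Itgb3 lost theirs (adjusted p from 0.0519 to 0.0991).

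Some uncalled log2 fold changes turned sign. Without 1 library at a time they spanned, in TFoCa versus WT, -0.79 to 0.99 for Itga8, -0.13 to 0.49 for Itga6, -0.16 to 0.64 for Cdh13, -0.25 to 0.0471 for Itga11 and -0.0153 to 0.78 for Itgb5. They spanned, in TMut versus WT, -0.15 to 0.63 for Itga4, -2.21 to 0.008 for Cdh26 and -0.30 to 1.01 for Cdh3, and in TMut versus TFoCa -1.04 to 0.74 for Itga8, which quantile normalization put at 0.0366. Other uncalled values that moved by over 1.5 times with no change of sign or call spanned, in TFoCa versus WT, -0.54 to -0.25 for Cdh22, -0.77 to -0.25 for Cdh24 and 0.33 to 0.65 for Itga2b, in TMut versus WT -0.77 to -0.32 for Itgal, 0.12 to 0.53 for Cdh15, -1.66 to -0.48 for Itga2 and 0.30 to 1.85 for Itgb7, and in TMut versus TFoCa -0.40 to -0.019 for Itgb4. Low counts limit Itgal, Itgb7, Itgae, Itga2, Cdh9, Cdh17, Cdh18 and Cdh26, where few reads stand behind each value.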
